A study of Oryctolagus cuniculus with 4 samples.

Results

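NDUFAF2 (ENSOCUG00000004525) and METTL21C (ENSOCUG00000015392) are 2 of the 21139 genes in the count table of 4 Visium sections of rabbit supraspinatus muscle. They were matched by name, and they had been singled out because their counts in stored healthy muscle were far above those in stored muscle after tenotomy, so the differences between sections below describe the choice and were not tested. In fresh healthy muscle, however, NDUFAF2 was scarce as well, with 7 UMIs (unique molecular identifiers, 1 per captured RNA molecule) against 381 in stored healthy muscle, 4 at 2 weeks and 1 at 16 weeks. NDUFAF2 was therefore a gene counted almost only in the stored healthy section, which held 96.95% of its UMIs, and METTL21C a gene counted mostly there, with 85.8% of its UMIs. These shares are not scaled to depth, and that section was the deepest, with 12536450 UMIs of all genes against 4079313 to 7017798 in the others.

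The muscles were those of mature female rabbits of the New Zealand White breed, aged 6 months, and a piece of the posterior distal belly had been snap frozen from each. The fresh healthy section was cut from recently harvested muscle of a healthy supraspinatus, the stored healthy section from a healthy supraspinatus kept for 6 years, and the tenotomy sections from supraspinatus muscles kept for 6 years whose tendon had been cut 2 or 16 weeks before harvest. The stored healthy section is labelled 14R and the 16-week section 14L, read here as the right and left side of 1 rabbit, which the labels do not state in words, and the 2 others carry numbers of their own. There was 1 section per condition, so condition and section cannot be told apart, nor can condition and animal where the rabbits differ, and no p-value was computed.

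Complex I is the first enzyme of the respiratory chain and is put together in steps from nuclear and mitochondrial subunits with the help of assembly factors that do not stay in the finished enzyme. NDUFAF2, a relative of the subunit NDUFA12, is an assembly factor of the late steps, and its loss in people causes complex I deficiency. METTL21C is a lysine methyltransferase of skeletal muscle, known in mouse mainly from slow fibers, and its reported targets are the ATPase VCP (p97), which extracts proteins for degradation, and alanyl-tRNA synthetase. A muscle fiber is typed by its myosin heavy chain, MYH7 in slow type 1 fibers and MYH1 in fast type 2x fibers.

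The sections held 854 to 2440 spots and 4079313 to 12536450 UMIs, and the median spot had 2090 to 5195 UMIs. Mitochondrial genes took 49.3% and 49.2% of UMIs in fresh and stored healthy muscle, and 33.8% and 34.6% at 2 and 16 weeks. MYH7 made up 14.4% and 55.5% of the MYH1 and MYH7 UMIs in fresh and stored healthy muscle, and 14.2% and 67.7% at 2 and 16 weeks, so the sections differed in fiber type. Pairs of sections shared 602 to 1603 spot barcodes, each of which marks the same place on its capture area and not the same cells. All intervals are at 95% and cover counting error only, not the difference between animals or sections.

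Levels of a whole section are given in CPM, the UMIs of a gene for every 1000000 UMIs of the section. NDUFAF2 stood at 0.998 CPM in the fresh healthy section (Poisson interval 0.401 to 2.06). Its level was 30.4 CPM in the stored healthy section (27.4 to 33.6). After tenotomy, it was 0.981 CPM at 2 weeks (0.267 to 2.51) and 0.211 at 16 weeks (0.00534 to 1.18). The 3 low sections had intervals that overlapped each other and lay far below that of the stored healthy section. Since a spot is a region that can hold several cells, fewer cells of a type and less RNA per cell cannot be told apart here or in the results that follow.

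The stored healthy level of NDUFAF2 was 30.5 times that of the fresh healthy section (14.6 to 76.3) and 31.0 times that of the 2-week section (12.01 to 114.3). Against the 16-week section, with its single UMI, the ratio was 144 (25.7 to 5709). Between the fresh healthy and the 2-week section the ratio was 1.02 (0.259 to 4.74), and between the fresh healthy and the 16-week section 4.73 (0.608 to 213). Relative to all UMIs, no difference between the fresh healthy and either tenotomy section was thus detectable for NDUFAF2 at this depth. Per 1000 MYH7 UMIs, a scale added after seeing the data, there were 0.296 NDUFAF2 UMIs in the fresh healthy section (0.119 to 0.610), 2.96 in the stored healthy section (2.67 to 3.28), 0.127 at 2 weeks (0.0345 to 0.324) and 0.0132 at 16 weeks (0.000334 to 0.0736). On this scale the stored healthy level was 10.0 times the fresh healthy one (4.81 to 25.1). The fresh healthy level was 2.34 times that at 2 weeks (0.594 to 10.9) and 22.4 times that at 16 weeks (2.88 to 1010), and a ratio of 1 lay inside the former interval and outside the latter. However, MYH7 itself was at 3372 CPM in the fresh healthy section and 15960 at 16 weeks, and this difference enters the scale. NDUFAF2 was not biased toward slow spots, as given below, and had 1 UMI at 16 weeks. No difference in NDUFAF2 between these sections is therefore read from this scale.

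For METTL21C, the level was 9.12 CPM in the fresh healthy section (7.02 to 11.7) and 58.2 in the stored healthy section (54.0 to 62.5). It was 2.45 CPM at 2 weeks (1.18 to 4.51) and 9.91 at 16 weeks (7.28 to 13.2). These levels rest on 64, 729, 10 and 47 UMIs. The order was stored healthy, then the 16-week and fresh healthy sections side by side, then the 2-week section.

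The stored healthy level of METTL21C was 23.7 times that at 2 weeks (12.8 to 49.7), 5.87 times that at 16 weeks (4.37 to 8.06) and 6.38 times that of the fresh healthy section (4.93 to 8.37). The fresh healthy level was 3.72 times that at 2 weeks (1.90 to 8.13), while its ratio to the 16-week level was 0.920 (0.622 to 1.37). Counted against the slow fiber myosin instead of all UMIs, there were 2.71 METTL21C UMIs per 1000 MYH7 UMIs in the fresh healthy section (2.08 to 3.45), 5.67 in the stored healthy section (5.26 to 6.09), 0.317 at 2 weeks (0.152 to 0.582) and 0.621 at 16 weeks (0.456 to 0.825). On that scale, both healthy sections lay above both tenotomy sections, the fresh healthy one by 8.54 times at 2 weeks (4.36 to 18.7) and 4.36 times at 16 weeks (2.94 to 6.49). However, MYH7 itself was at 3372 CPM in the fresh healthy section, 7742 at 2 weeks and 15960 at 16 weeks, and this enters the scale. Relative to all UMIs, no difference between the fresh healthy and 16-week sections was detectable. However, MYH7 made up 14.4% and 67.7% of their MYH1 and MYH7 UMIs, so this does not show equal levels in like fibers. No difference is read from the MYH7 scale alone, and levels by fiber type are given below.

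**Figure D1:**
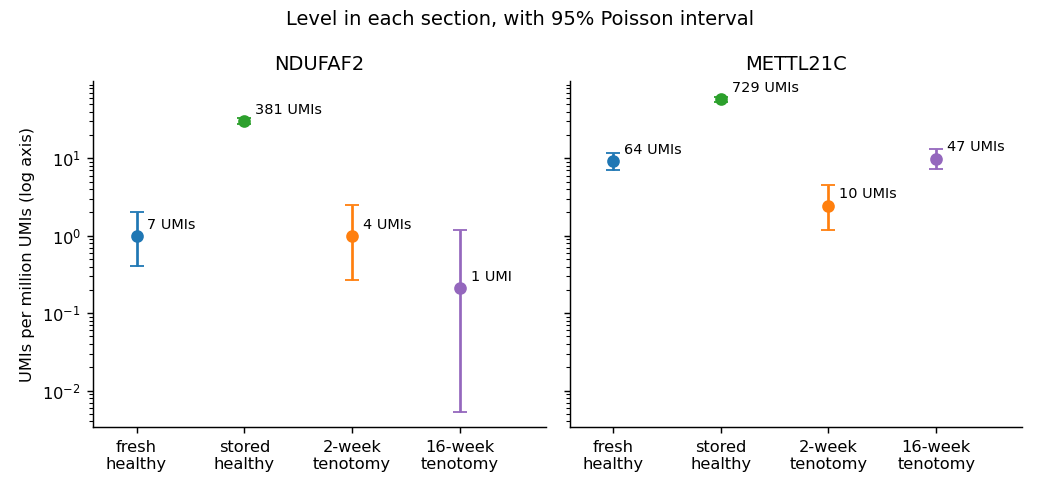
Levels of NDUFAF2 and METTL21C in each section in CPM (log axis), with the UMIs beside each point and 95% Poisson intervals as bars. NDUFAF2 was at 30.4 CPM in the stored healthy section and under 1 in the others, and METTL21C at 58.2 against 2.45 to 9.91.

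Features with at least 50 UMIs in the sections compared give the background for these ratios. A level lower than in the stored healthy section by a log2 ratio of at least 1 was found for 1.63% of 4289 features at 2 weeks, 1.77% of 4564 at 16 weeks and 7.94% of 4370 in the fresh healthy section, and both genes were among them each time. The median feature was itself shifted, by a log2 ratio of 0.59 at 2 weeks, 0.89 at 16 weeks and 0.08 in the fresh healthy section. Relative to the median feature with at least 200 UMIs, METTL21C stood at -3.31 at 16 weeks on the log2 scale, against -2.54 relative to all UMIs. Of 4174 features that could be compared in all 3 pairs, 13 were lower by a log2 ratio of at least 1 in all 3, and 2 by at least 4, NDUFAF2 and ATP6V0D2, a proton pump subunit of osteoclasts and macrophages that was named after its values were seen. Since the genes were chosen on these contrasts, nothing follows from their place in this list.

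A UMI of NDUFAF2 was present in 322 of 2440 stored healthy spots, or 13.2% (Clopper-Pearson interval 11.9 to 14.6), and 273 of these spots had only 1. No spot held more than 4. In the other sections, it was found in 6 of 1950 fresh healthy spots, 4 of 854 spots at 2 weeks and 1 of 1726 spots at 16 weeks. Each spot with at least 1000 UMIs was also thinned to 1000 by a random draw, which left out 93 stored and 266 fresh healthy spots with fewer. Of the stored healthy spots, 3.32% kept a UMI (2.64 to 4.13), against 0 of 1684 fresh healthy spots. That 0 allows a share of up to 0.178% by a limit of 3 counts and 0.219% by the Clopper-Pearson interval.

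METTL21C was present in 473 stored healthy spots, or 19.4% (17.8 to 21.0), and 141 of them held at least 2 UMIs, with up to 9 in a spot. It was present in 61 fresh healthy spots, or 3.13% (2.40 to 4.0), in 10 spots at 2 weeks, or 1.17% (0.563 to 2.14), and in 32 spots at 16 weeks, or 1.85% (1.27 to 2.61). Thinned to 1000 UMIs in the same way, the shares were 5.11% for stored (4.26 to 6.08) and 0.594% for fresh healthy muscle (0.285 to 1.09). They were 0.2497% at 2 weeks (0.0303 to 0.899) and 0.510% at 16 weeks (0.205 to 1.05), where 53 and 352 spots with fewer UMIs were left out. In the stored healthy section, 24 spots with 4 or more UMIs held 17.7% of the METTL21C UMIs, and 1 such spot held 1.05% of the NDUFAF2 UMIs. METTL21C also had more UMIs there, 729 against 381, and unevenness relative to the mean was not computed.

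Each spot was placed on a scale of fiber type by the share of MYH7 in its MYH1 and MYH7 UMIs, where at least 5 were counted. Levels in groups of spots are given in non-mitochondrial CPM, the UMIs of a gene for every 1000000 non-mitochondrial UMIs, since mitochondrial UMIs are part of the total. MYH2, the type 2a gene, has no feature of that name and could not enter this scale. MYH4, the type 2b gene, was left out of it, with 16259 UMIs at 2 weeks and 42 to 292 in the other sections. Spots with a share of at least 50% are called slow here and the others fast, but a spot can cover several fibers and other cells.

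The level of METTL21C in the stored healthy section was higher in each class of higher MYH7 share. It was 36.3 CPM in spots with a share under 20% (25.6 to 50.1), 58.8 from 20 to 40% (46.9 to 72.9) and 84.2 from 40 to 60% (67.7 to 103.4). From 60 to 80% it was 98.3 (77.3 to 123), and from 80% upward 211.6 (192.4 to 232.2). The 654 spots of this last class, with a median MYH7 share of 97.4%, held 444 of the 729 UMIs.

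Slow spots of the stored healthy section had 3.34 times the METTL21C level of fast spots (2.79 to 4.02), at 171 against 51.0 non-mitochondrial CPM. Of its 24 spots with 4 or more METTL21C UMIs, 20 had a MYH7 share of at least 80%. These 24 spots were also deep, with a median of 7894 UMIs against 5067 in spots without METTL21C. Across 2393 spots of this section, Spearman's rho of METTL21C level and MYH7 share was 0.29. The 6 genes of regenerating fibers with a feature were at 1985 non-mitochondrial CPM in slow and 429.5 in fast spots of this section, and the 8 of connective tissue at 10800 and 5792. Most UMIs of the former list were those of ACTC1, with 5948 in slow and 842 in fast spots, a log2 ratio of 2.64. MYH8 had 513 and 365, a log2 ratio of 0.31. The part of either list in the METTL21C difference was not tested.

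The same direction was seen in the fresh healthy section at lower levels. METTL21C was at 12.5 non-mitochondrial CPM in spots with a MYH7 share under 20% (8.54 to 17.6), 28.1 from 20 to 40% (16.4 to 45.0), 37.3 from 40 to 60% (17.9 to 68.7) and 53.6 from 60 to 80% (17.4 to 125.1), and the next class held 11 spots and 0 UMIs. Slow spots had 2.76 times the level of fast spots (1.25 to 5.46), from 10 and 54 UMIs.

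After tenotomy, the METTL21C level was low in slow spots too. At 16 weeks it lay between 11.1 and 19.8 CPM in all 5 classes, and slow spots had 1.36 times the level of fast spots (0.6002 to 3.60), an interval that holds both no difference and that of the healthy sections. At 2 weeks, 3 UMIs fell on 52 slow and 7 on 799 fast spots, a ratio of 6.02 (1.005 to 26.4).

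Compared within classes, the gap between stored healthy and 16-week muscle was also present among slow spots. In spots with a MYH7 share of at least 80%, METTL21C was at 211.6 non-mitochondrial CPM in the stored healthy section and 19.8 at 16 weeks, a ratio of 10.7 (7.08 to 16.8), with MYH7 itself at 36150 and 34500. In spots under 20%, the stored healthy level was 15.0 times that at 2 weeks (5.87 to 48.8). The spots of a class were not alike in fiber type, since the median MYH7 share was 97.4% in stored healthy and 87.5% in 16-week spots from 80% upward, and 13.5% in stored healthy, 7.36% in 2-week and 6.23% in fresh healthy spots under 20%. The part of this in the ratios was not tested. The gap to the fresh healthy section was smaller, at 2.91 times under 20% (1.76 to 4.83), 2.09 from 20 to 40% (1.23 to 3.76), 2.25 from 40 to 60% (1.17 to 4.86) and 1.83 from 60 to 80% (0.752 to 5.81). In slow spots, the fresh healthy level was 44.7 CPM (21.4 to 82.2) and the 16-week level 15.8 (11.3 to 21.6), on 10 and 39 UMIs. In fast spots these were 16.2 (12.2 to 21.2) and 11.7 (4.69 to 24.0). The intervals overlapped, barely so in slow spots, whose median MYH7 share was 60.2% and 76.5%. The ratio of these sections within classes was not computed.

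NDUFAF2 had no such bias toward slow spots. In the stored healthy section its level was 74.6 CPM in spots with a MYH7 share under 20% (58.8 to 93.4), 62.4 from 20 to 40% (50.03 to 76.9) and 77.6 from 40 to 60% (61.8 to 96.2). It was 61.6 from 60 to 80% (45.3 to 81.9) and 41.0 from 80% upward (32.8 to 50.6), so that the slowest spots were the lowest. Slow spots had 0.793 times the level of fast spots (0.644 to 0.974), and Spearman's rho with the MYH7 share was -0.04 over 2393 spots.

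The excess of NDUFAF2 in the stored healthy section was present in every class of fiber type with at least 20 spots. Among fast spots, its level was 31.9 times that of the fresh healthy section (15.2 to 80.4) and 42.3 times that at 2 weeks (16.3 to 157). Among slow spots it was 131 times that at 16 weeks (23.2 to 5208), again against 1 UMI. Fresh healthy slow spots had 0 UMIs, against 180 UMIs in 1174 stored healthy slow spots, a level at least 3.97-fold higher in the stored healthy section when 3 counts are set for 0, and 3.19-fold by the lower limit of the exact interval.

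**Figure D2:**
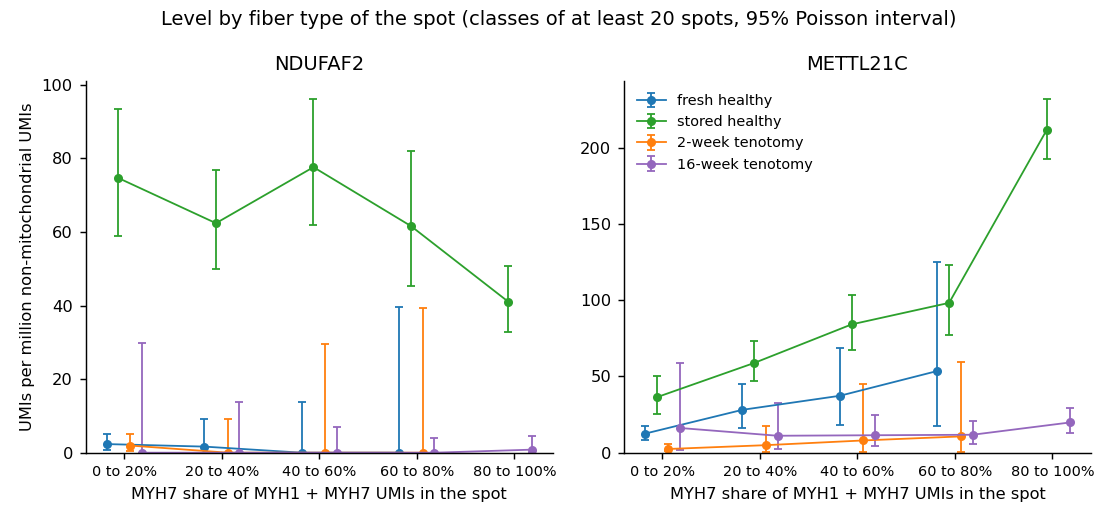
Level of each gene (non-mitochondrial CPM) in spots grouped by MYH7 share of MYH1 and MYH7 UMIs, per section, for groups of at least 20 spots, with 95% Poisson intervals. METTL21C went from 36.3 to 211.6 CPM over the stored healthy groups, whereas NDUFAF2 went from 74.6 to 41.0.

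**Figure D3:**
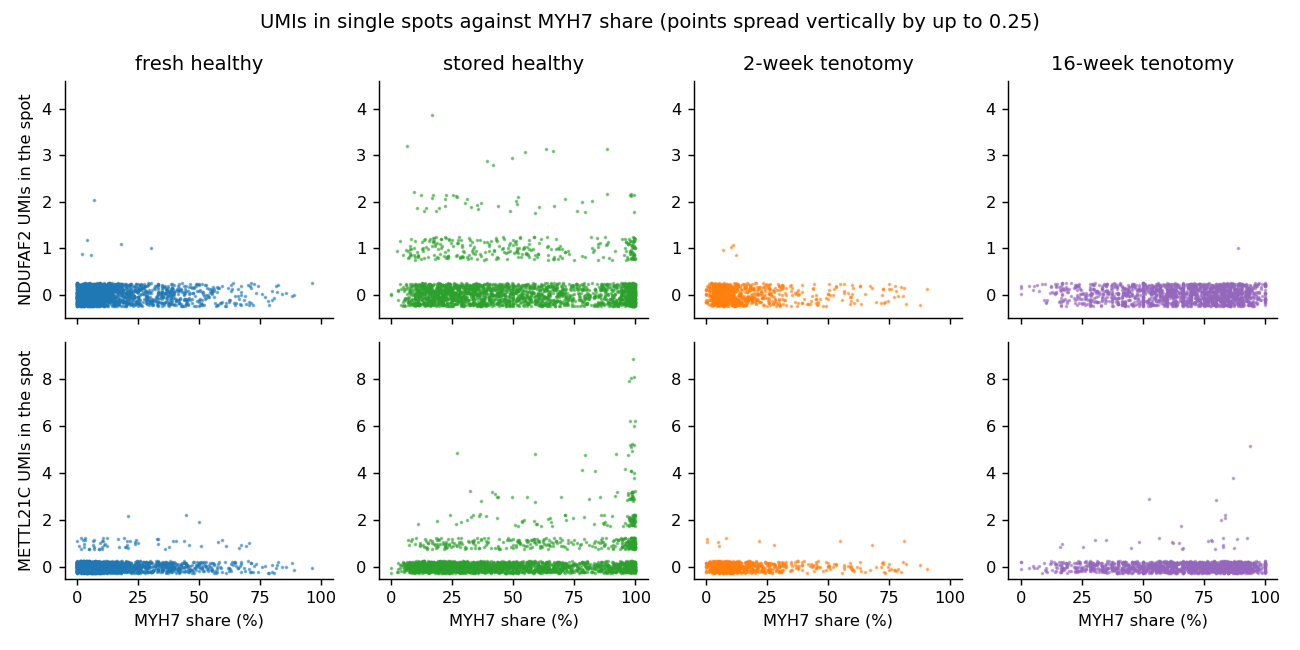
UMIs of NDUFAF2 (top) and METTL21C (bottom) in each spot against its MYH7 share, by section, with points spread vertically by up to 0.25. In the stored healthy section, spots with 4 or more METTL21C UMIs crowd at the right edge, and spots with NDUFAF2 lie along the whole axis.

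The mitochondrial share of a spot, the percentage of its UMIs from 37 mitochondrial genes, had a median of 50.9% in the stored healthy section and 32.4% at 16 weeks. NDUFAF2, whose product serves a mitochondrial enzyme, was at 49.5 CPM in the stored healthy quartile of lowest mitochondrial share (40.2 to 60.3) and at 67.3, 61.1 and 65.1 in the next 3. The top quartile had 1.31 times the level of the bottom (0.964 to 1.79), so no difference between these 2 quartiles was detectable. Among fast spots alone, the log2 ratio was -0.18, and among slow spots 0.73. The MYH7 share still differed along this scale within slow spots, as given below, and its part was not tested.

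METTL21C was lower where the mitochondrial share of stored healthy spots was higher, from 160 non-mitochondrial CPM in the bottom quartile (142.5 to 178) through 115 and 81.4 to 82.3 in the top quartile (67.0 to 100.2). The top quartile thus had 0.516 times the level of the bottom (0.408 to 0.648). Fiber type moved with this scale, since the median MYH7 share was 70.9% in the bottom and 45.3% in the top quartile. The log2 ratio of top to bottom quartile was -0.73 within slow spots and -0.07 within fast spots. Fiber type was not held fixed within slow spots. Their median MYH7 share was 97.0% below the section's median mitochondrial share and 69.2% from it upward. The part of this in the ratio was not tested.

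At 16 weeks, the few METTL21C UMIs were mostly found where the mitochondrial share was high. The bottom quartile had 1 UMI, the next 2 had 6 and 7, and the top quartile had 33, or 1.42 CPM (0.0359 to 7.89) against 33.5 (23.0 to 47.0). The ratio of top to bottom quartile was 23.6 (3.95 to 961). The 33 UMIs of the top quartile fell on 20 of 432 spots. In the whole section, 8 of 32 spots with METTL21C held at least 2 UMIs, and the interval does not take such clumping into account. The top quartile was also deeper, with a median of 4309 UMIs per spot against 1626, while its median MYH7 share was 76.0% against 70.3%. The part of depth in this difference was not tested. In fresh healthy muscle, the same ratio was 1.39 (0.645 to 3.05), and at 2 weeks 0 and 3 UMIs fell on the bottom and top quartile.

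In classes of mitochondrial share, fiber type differed between the sections as well. The stored healthy level of METTL21C was 76.3 times the 16-week level in spots under 30% (24.3 to 385), on 41 and 3 UMIs, 19.2 times from 30 to 40% (10.5 to 38.6) and 3.16 times from 40 to 50% (2.18 to 4.73). From 50 to 60% it was 10.0 times (1.78 to 398), against 1 UMI. The median MYH7 share of stored healthy and 16-week spots was 98.3% and 69.2% in the class under 30%, 95.7% and 70.0% from 30 to 40%, and 54.3% and 76.2% from 40 to 50%, and its part in these ratios was not tested. For NDUFAF2, the stored healthy level was 29.7 times the fresh healthy one from 40 to 50% (11.4 to 110.2) and 30.1 times from 50 to 60% (10.1 to 147). Against 2 weeks, whose 4 NDUFAF2 UMIs all lay in spots under 30%, it was 3.53 times in that class (0.517 to 20.9), on 3 and 4 UMIs, an interval that includes no difference. From 30 to 40%, 18 stored healthy UMIs stood against 0 at 2 weeks, with a lower limit of 13.1-fold. From 40 to 50%, 155 stood against 0, with a lower limit of 7.24-fold. Against 16 weeks, the ratio was 45.7 from 30 to 40% (7.21 to 1903), on 18 and 1 UMIs. The other 16-week classes held 0 UMIs, with lower limits of 2.31-fold under 30%, 12.8-fold from 40 to 50% and 1.97-fold from 50 to 60%.

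**Figure D4:**
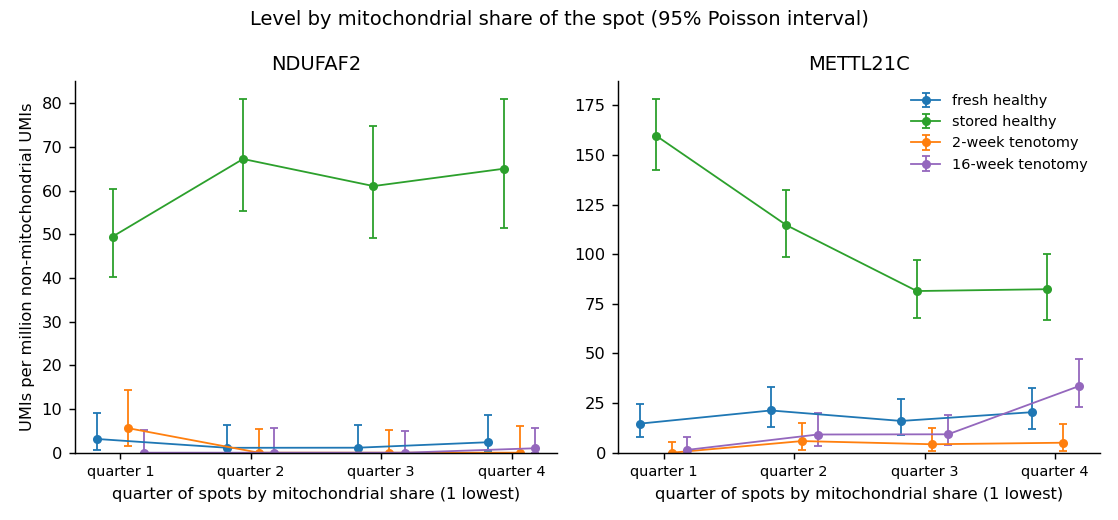
Level of each gene (non-mitochondrial CPM) in 4 equal groups of spots ordered by mitochondrial share, per section, with 95% Poisson intervals. METTL21C went from 160 to 82.3 over the stored healthy groups and stood at 33.5 in the top group at 16 weeks, and NDUFAF2 stayed between 49.5 and 67.3 in the stored healthy section.

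Across stored healthy spots, the levels of the 2 genes were little related. METTL21C was at 121 non-mitochondrial CPM in the 322 spots with NDUFAF2 and 113 in the spots without. Spots with NDUFAF2 had METTL21C in 23.9% of cases and the others in 18.7%, but the former also had more UMIs, with a median of 5616 against 5123.

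No other assembly gene of complex I that was counted was low in all 3 sections. The same holds for nearly all features, since 13 of 4174 were lower by a log2 ratio of at least 1 in all 3. Of 18 listed assembly genes, 12 had a feature and 9 had at least 50 UMIs in the compared sections. Only NDUFAF2 was lower than in stored healthy muscle by a log2 ratio of at least 1 at 2 weeks and at 16 weeks, and NDUFAF2 and NUBPL, which delivers iron-sulfur clusters, were lower in the fresh healthy section. NUBPL had a log2 ratio of -1.62 there. Among all features, 1.63% were lower at 2 weeks, 1.77% at 16 weeks and 7.94% in the fresh healthy section. TIMMDC1, a membrane arm assembly factor, was the only one higher, by a log2 ratio of 1.33 at 2 weeks, where 24.2% of all features were higher by at least 1, and 1.29 in fresh healthy muscle, where 8.81% were. The list medians were -0.01, 0.02 and -0.04 at 2 weeks, at 16 weeks and in the fresh healthy section, below the medians of all features.

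NDUFAF1, which acts early in assembly, stood at 38.1, 39.2, 46.3 and 39.6 CPM in the fresh healthy, stored healthy, 2-week and 16-week section, and NDUFAF3 at 224, 185, 226 and 203. Both were thus within a narrow range over sections in which NDUFAF2 went from 0.211 to 30.4 CPM.

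All 16 nuclear complex I subunits with a feature, of 37 listed, lay within a log2 ratio of 1 of the stored healthy section, with medians of 0.14 at 2 weeks, -0.29 at 16 weeks and -0.10 in the fresh healthy section. The medians of all features were 0.59, 0.89 and 0.08, so the subunits stood below the median feature. Of all features, 1.63%, 1.77% and 7.94% were lower by at least 1. The summed subunits were at 17190 non-mitochondrial CPM in the stored healthy section and 16330, 14200 and 11340 in the fresh healthy, 2-week and 16-week section. Of 15 listed genes of mitochondrial biogenesis, 3 or 4 could be compared. None was lower by a log2 ratio of at least 1, and PPRC1 and GABPA, which act in the transcription of nuclear genes for mitochondria, were higher at 16 weeks by 1.17 and 1.19, where 43.9% of all features were higher by at least 1.

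Among methyltransferases related to METTL21C, 6 of 16 listed names had a feature, and only METTL21C and EEF1AKMT4 had at least 50 UMIs in comparison with the stored healthy section. EEF1AKMT4, a lysine methyltransferase of an elongation factor, had log2 ratios of -0.15 at 2 weeks, 0.79 at 16 weeks and -0.55 in the fresh healthy section. VCPKMT, a methyltransferase of VCP, had 11, 8, 8 and 3 UMIs in the fresh healthy, stored healthy, 2-week and 16-week section.

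Relative to all UMIs, VCP, AARS1 and the partners of VCP were not low where METTL21C was. Of 13 listed names, 7 were counted, none was lower than in stored healthy muscle, and their median log2 ratios were 0.83 at 2 weeks, 0.48 at 16 weeks and 0.49 in the fresh healthy section. The medians of all features were 0.59, 0.89 and 0.08. Few features were lower by at least 1 in any case, 1.63%, 1.77% and 7.94% of all. VCP was at 232 CPM in fresh and 172 in stored healthy muscle, and at 306 and 240 after 2 and 16 weeks. At 2 weeks, FAF2, UBXN4 and PLAA, which guide substrates to VCP, were higher by 1.28, 1.35 and 1.11, while 24.2% of all features were higher by at least 1. FAF2 and UBXN4 were higher by 1.40 and 1.26 at 16 weeks, where 43.9% of all features were. In the fresh healthy section, AARS1 and PLAA were higher by 1.37 and 1.02, where 8.81% of all features were. AARS1, the alanyl-tRNA synthetase, was at 15.7, 6.06, 10.3 and 8.22 CPM in the same order of sections, on 39 to 110 UMIs.

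Slow fiber genes were among the genes nearest to METTL21C. Over the 4 sections, the smallest distances of centered log2 levels among 2470 named features belonged to MYL2, the slow regulatory light chain, CSRP3, a Z-disc protein, S100A1, BEND5 and MYOZ2, at 2.10 to 2.34. Over the 9 fiber type classes of the healthy sections, they belonged to CASQ2, the calcium store protein of slow and cardiac muscle, at 0.391, then MYL2 at 0.815, CSRP3 at 1.08, LDLRAD4 and LDHB, the heart form of lactate dehydrogenase. The first ranking used the section levels for which METTL21C was chosen. The second, for either gene, took the classes of both healthy sections together, so it holds the step between these sections as well as fiber type.

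CASQ2 and METTL21C parted after tenotomy, which restates the choice of METTL21C for its low counts there, since CASQ2 was ranked on healthy classes only. The same holds for the gap between METTL21C and the other slow fiber genes after tenotomy. CASQ2 was at 25.2 CPM in fresh and 145 in stored healthy muscle, and at 95.1 and 232 after 2 and 16 weeks, while METTL21C was at 9.12, 58.2, 2.45 and 9.91. MYL2 was at 5770, 25160, 6542 and 17930. None of the 12 slow fiber genes at 16 weeks was past a log2 ratio of 1 in either direction from the stored healthy section, and their median was 0.34. Among all features, 43.9% were higher and 1.77% lower there, with a median of 0.89, so the slow fiber genes stood below the median feature. At 2 weeks, MYH7B, MYL2, MYOZ2 and CSRP3 were lower and TNNI1, the slow troponin I, was higher, with a median of -0.64. There, 1.63% of all features were lower and 24.2% higher, with a median of 0.59. In stored healthy muscle TNNI1 was itself lower in slow than in fast spots, by a log2 ratio of -0.60. In the fresh healthy section, where 7.94% of all features were lower, 9 of 12 were lower, with a median of -1.39, and METTL21C had -2.66.

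Within spots of at least 80% MYH7, the 12 slow fiber genes had a median log2 ratio of -0.12 between the 16-week and the stored healthy section, and MYL2 at -1.19 was the lowest, while METTL21C had -3.39. In these spots 2.84% of 3063 features were lower by at least 1, and the median feature stood at 0.27. In spots under 20% MYH7, the fresh healthy section had -1.54 for METTL21C, within the range of -1.58 to 0.57 of the slow fiber genes, with 3.75% of 2878 features lower by at least 1.

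**Figure D5:**
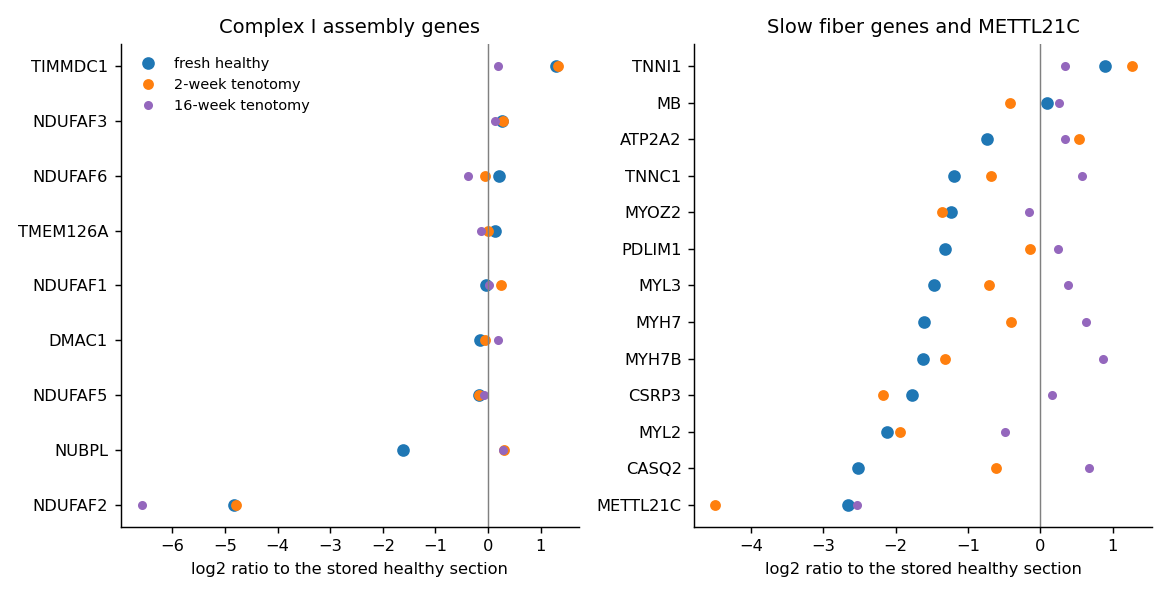
Log2 ratio of the fresh healthy, 2-week and 16-week section to the stored healthy section for complex I assembly genes (left) and for slow fiber genes with METTL21C (right), genes with at least 50 UMIs over the 4 sections, from UMIs relative to the total. NDUFAF2 lies at -4.83, -4.79 and -6.59, apart from the other assembly genes, and at 16 weeks METTL21C at -2.54 lies apart from the slow fiber genes.

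The genes nearest to NDUFAF2 were farther off. Over the 4 sections, METTL21C was the nearest of 2470 named features, at a distance of 3.26, which restates that both were chosen for like levels in these sections. It was followed by CKMT2, the mitochondrial creatine kinase, FABP3, a fatty acid carrier, ATP5MC1, a subunit of ATP synthase, and LSMEM2, at 3.89 to 4.11. CKMT2 stood at 2014, 3042, 1630 and 1042 CPM in the fresh healthy, stored healthy, 2-week and 16-week section, a smaller range than that of NDUFAF2. Over the fiber type classes of the healthy sections, the nearest were SFRP2, CCL21, MYH8, KERA and PFDN5, at 2.50 to 3.44. SFRP2, a secreted protein of connective tissue, stood at 6.55, 116, 443 and 202 CPM in the same order of sections, and so was not low after tenotomy.

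Cell types other than muscle differed between the sections as well. Against the stored healthy section, the fresh healthy section was lower by a log2 ratio of at least 1 in 6 of 7 connective tissue genes, 7 of 7 macrophage genes and 4 of 4 genes of regenerating fibers, against 7.94% of all features. The summed levels of the lists in the fresh healthy, stored healthy, 2-week and 16-week section were 1410, 4302, 13500 and 8421 CPM for connective tissue, 35.9, 168, 204 and 352 for macrophages, and 60.1, 638, 588 and 2171 for regenerating fibers. Those of adipose tissue were 349, 299.5, 638 and 1406, and those of vessels 313, 374, 621 and 715. None of these lists was highest in the stored healthy section. Within the list of regenerating fibers, ACTC1 had the most UMIs and stood at 46.2, 542, 298 and 1909 CPM in the same order. MYH8 stood at 11.8, 70.0, 239 and 43.9 CPM, and MYL4 at 0.143, 10.7, 28.7 and 102.5. The sum thus followed ACTC1, while MYH8 and MYL4 were higher at 2 weeks than in stored healthy muscle. Within the macrophage list, GPNMB, named after its values were seen, stood at 1.71, 45.5, 3.19 and 31.0 CPM in the same order, and its part in the results was not tested. Of 8 fast fiber genes, 4 were higher and 0 lower at 2 weeks, where 24.2% of all features were higher and 1.63% lower. At 16 weeks 0 were higher and 3 lower, against 43.9% and 1.77% of all features, and in fresh healthy muscle 2 were higher and 0 lower, against 8.81% and 7.94%.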

How the data were processed

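Spatial expression was measured with the 10x Visium 3′ assay after 18 min of permeabilization. Per the file headers and the submitters' processing notes, the authors counted with Space Ranger 1.2.0 against OryCun2.0 and, by the methods of the study, an Ensembl annotation. The deposited values are raw counts of UMIs per gene and spot for spots under tissue, without normalization, so a count is a number of molecules and the number of reads was not used. Spot positions are held in lists without barcodes and were not used.

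All 6970 spots and 21139 features were kept. The 37 mitochondrial genes were recognized by consecutive identifiers. Levels are counts per 1000000 UMIs (CPM), with exact Poisson intervals, ratios have exact conditional intervals and shares of spots Clopper-Pearson intervals, all at 95% and for counting error only. Log2 ratios had 0.5 UMI added. In lists, a gene counted as higher or lower from a log2 ratio of 1 among features with at least 50 UMIs in the sections compared. The lists hold complex I assembly genes and subunits, mitochondrial biogenesis, methyltransferases, VCP partners, slow and fast fibers, regenerating fibers, connective tissue, adipose tissue, macrophages, and endothelium with smooth muscle (vessels). Nearest genes were the 5 with the smallest Euclidean distance of log2 levels centered on their mean, among named features with at least 200 UMIs. Spots are pieces of tissue, so doublets were not called. With 1 section per condition, no test was run.

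The 2 genes and the lists were chosen with earlier results of these data known. Alternatives covered other denominators, spot filters, class limits and weighting by fiber type or mitochondrial share. The denominator of MYH7 UMIs and the comparison of slow fiber genes within classes were added after seeing the data. Intervals were tried on Poisson counts simulated from the levels of the 16-week and stored healthy sections (4564 features, 200 changed). In these, 97.0% of changed and 95.6% of unchanged features had the true ratio inside. The intervals assume Poisson counts too, so this checks their computation only. It cannot show whether they hold where UMIs clump in spots. Scripts ran in Python 3.11.15 with scipy 1.17.1 and numpy 2.4.6, tables in pandas 2.3.3, and figures in matplotlib 3.10.9. The table of gene order came from the RefSeq annotation of another rabbit assembly, mOryCun1.1.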

Additional observations from a re-analysis of the deposited data

How the results depend on the processing

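Of 75 alternative values, 62 stayed within the counting interval of the value reported, 13 did not and 72 had its sign. The 3 that changed sign were quartile ratios of mitochondrial share whose counting interval included no difference. No paired analysis was possible because each condition has 1 section, and leaving out a section would leave a condition without data. For NDUFAF2, the log2 ratio to the stored healthy section moved from -4.79 to -6.86 at 2 weeks when weighted by mitochondrial share, which leaves out spots of 50% or more, too few at 2 weeks, and from -4.83 to -3.23 in the fresh healthy section per MYH7 UMI. For METTL21C, weighting by MYH7 share moved it from -4.50 to -3.08 at 2 weeks and from -2.66 to -1.07 in the fresh healthy section, without the class from 80% upward, which held too few spots in those sections. Per MYH7 UMI it became -1.06 in the fresh healthy section and -3.18 at 16 weeks, and scaling by the median feature gave -3.31 at 16 weeks, against -2.54. Between spots with at least 80% and under 20% MYH7 in the stored healthy section, the log2 ratio was 2.52 for METTL21C, against 1.74 for slow and fast spots, and -0.87 for NDUFAF2, against -0.34. For top against bottom quartile of mitochondrial share, METTL21C in the stored healthy section moved from -0.95 to -1.35 with all UMIs as denominator and to -0.0742 within fast spots, METTL21C in the fresh healthy section from 0.47 to 3.06 within slow spots, on few UMIs, and NDUFAF2 in the stored healthy section from 0.40 to -0.18 within fast spots. The cause of these moves was not tested. With a minimum of 20 or 200 in place of 50 UMIs, the share of features lower than in stored healthy muscle was 2.11% or 1.39% at 2 weeks, 2.36% or 1.76% at 16 weeks and 9.36% or 6.74% in fresh healthy muscle. Fresh healthy spots of at least 80% MYH7 were too few for the contrast of 80 against 20%. The level of NDUFAF2 outside the stored healthy section rests on 1 to 7 UMIs, and its relation to fiber type or mitochondrial share there is beyond this depth.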

Other observations

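In the gene order of the assembly mOryCun1.1, NDUFAF2 overlaps its neighbor ERCC8, a DNA repair gene, and encloses SMIM15, and whether they overlap in OryCun2.0 was not analyzed here. ERCC8 had 21, 22, 23 and 32 UMIs in the fresh healthy, stored healthy, 2-week and 16-week section, while NDUFAF2 had 7, 381, 4 and 1. SMIM15 had 0 UMIs in each section, and the next genes with a feature, ELOVL7, DEPDC1B and ZSWIM6, had 0 to 3. The neighbors of METTL21C were not high in the stored healthy section alone either. TPP2, a peptidase, had 34.3, 36.1, 51.5 and 42.2 CPM in the same order, TEX30 12.8, 10.4, 13.0 and 19.4, and POGLUT2 13.1, 19.2, 24.8 and 47.9.

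The few spots with NDUFAF2 outside the stored healthy section were compared with the stored healthy spots of the same barcode. All 6 fresh healthy spots, 4 spots at 2 weeks and 1 spot at 16 weeks had a barcode that was also counted in the stored healthy section, and 1, 0 and 1 of these had NDUFAF2 there. For METTL21C, 5 of 55 such fresh healthy spots, 1 of 9 at 2 weeks and 2 of 31 at 16 weeks had it under the same barcode in the stored healthy section, or 9.09%, 11.1% and 6.45%. Among all shared barcodes, the share with METTL21C in the stored healthy section was 16.3%, 22.1% and 18.8%.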
